A study of Mus musculus with 2 samples.

Results

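The genes described here code for subunits of the GABA-A receptor, the chloride channel that opens when the transmitter GABA binds. Of the 19 GABA-A receptor subunit genes among the 32285 genes listed, 7 were taken by name: the alpha subunits Gabra2, Gabra3, Gabra4 and Gabra5, the beta subunits Gabrb1 and Gabrb2, and the gamma subunit Gabrg3. They were read from 2 single-cell libraries of mouse embryos at embryonic day 16.5, whose tissue is labelled as brain hemispheres, while the protocol names the dorsal telencephalon, the region that forms the cerebral cortex. Both libraries, WT replicate 1 and WT replicate 6, carry the genotype WT in a series built to set control embryos against embryos that lose Dot1l in Emx1-Cre cells. The conditional knockout was not analysed here. The labels name no strain, no treatment and no further allele, and whether these embryos carry Cre or a floxed allele is not given in the sources used here.

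A GABA-A receptor is built from several subunits around a central pore. The usual form joins alpha and beta subunits, which hold the GABA site at their border, with a gamma subunit, which takes part in anchoring the receptor at synapses and in the benzodiazepine site. Which alpha is present sets how fast and how strongly the channel answers: alpha 2 and alpha 3 are known from immature neurons, alpha 4 and alpha 5 are best known from receptors outside synapses. In immature cells chloride is high, so that GABA can depolarise, and GABA is known to act on radial glial cells (RGCs), the stem cells of the cortex, before synapses form.

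The 7 genes lie on 4 chromosomes in build mm10 (coordinates from RefSeq, GRCm38.p6). Chromosome 5 holds Gabra2 (chr5:70958392-71095849, minus strand), Gabra4 (chr5:71569734-71658308, minus strand) and Gabrb1 (chr5:71657921-72149572, plus strand). Gabrg3 (chr7:56716463-57387215) and Gabra5 (chr7:57407669-57591016) are neighbours on chromosome 7, both on the minus strand. Gabrb2 is at chr11:42419515-42632591 on the plus strand and Gabra3 at chrX:72432676-72656919 on the minus strand. Gabra4 and Gabrb1 start head to head, and their annotated spans overlap by 388 bases. Reads in that overlap can be told apart only by strand. Because the pair shares its start region and both genes were highest in RGCs, the RefSeq window from 250 bases before to 50 bases after the start is shown for each, 5′ to 3′ on its own strand, with every CG in capitals, at chr5:71658259-71658558 for Gabra4 and chr5:71657671-71657970 for Gabrb1.
Gabra4: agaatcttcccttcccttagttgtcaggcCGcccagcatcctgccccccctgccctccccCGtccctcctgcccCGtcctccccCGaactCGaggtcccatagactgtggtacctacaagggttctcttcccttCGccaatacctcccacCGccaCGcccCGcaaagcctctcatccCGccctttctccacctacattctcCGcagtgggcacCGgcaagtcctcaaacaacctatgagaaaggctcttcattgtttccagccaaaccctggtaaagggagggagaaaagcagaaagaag
Gabrb1: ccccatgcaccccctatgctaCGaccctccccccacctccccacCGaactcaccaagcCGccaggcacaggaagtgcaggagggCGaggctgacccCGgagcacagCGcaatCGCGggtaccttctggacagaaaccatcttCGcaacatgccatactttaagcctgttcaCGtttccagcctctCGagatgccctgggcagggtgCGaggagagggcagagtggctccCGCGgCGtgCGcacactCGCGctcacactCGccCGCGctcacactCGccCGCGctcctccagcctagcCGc

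The first Gabrb1 window held 25 CG and the Gabra4 window 12, against a median of 7 over 32851 such windows. Of all windows, 81.6% held fewer CG than that of Gabrb1 and 60.4% fewer than that of Gabra4. The Gabra2 window also held 25 CG, the Gabra5 and Gabrg3 windows 13 each, and the 3 Gabrb2 windows 9 to 11. Neither of the 2 Gabra3 windows held a CG. The letters TATAAA, searched on both strands, were present in the Gabra3 windows and in 1 Gabrb2 window, and in 13.6% of all windows. These counts describe letters only.

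The libraries held 14136 and 13046 cells, with 74930397 and 68964234 UMIs (unique molecular identifiers, each marking 1 captured mRNA molecule). Of these, 8139 and 8209 cells had 1500 to 60000 UMIs and under 10% mitochondrial UMIs, at medians of 6924 and 6664 UMIs. Cells were sorted into 18 classes by gates on marker genes, none of them a subunit gene. The gates took 4898 cells (60.2%) and 5218 cells (63.6%), and 59 cell barcodes occurred in both libraries. The 10 RGC markers summed to 12600 and 14400 CPM (counts scaled to the same total in every class and library) in the RGC gate and to 270 and 261 CPM in maturing excitatory neurons. The 9 GABAergic markers summed to 2860 and 2990 CPM in the gate for interneurons of the medial ganglionic eminence (MGE) and to 29.6 and 28.1 CPM in maturing excitatory neurons. Since the gates used these markers, the sums check the gates and are no result. A gate for striatal neurons, cells of the ventral telencephalon, took 239 and 212 cells, and whether the dissection included ventral tissue cannot be told from the labels. The libraries also differed in Xist, with 71121 UMIs in the first against 8 in the second. Gabra3 is the X-linked member, and the part of this difference in its values was not tested.

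Over all cells kept, Gabra2 was the most counted member, with 11082 and 11754 UMIs, and Gabra5 the least, with 430 and 351. The other members had between 563 and 4772 UMIs a library. Whether intronic reads were counted is not stated, and the genes span 88.6 kb (Gabra4) to 671 kb (Gabrg3), so each gene is compared only with itself between classes.

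**Figure D1:**
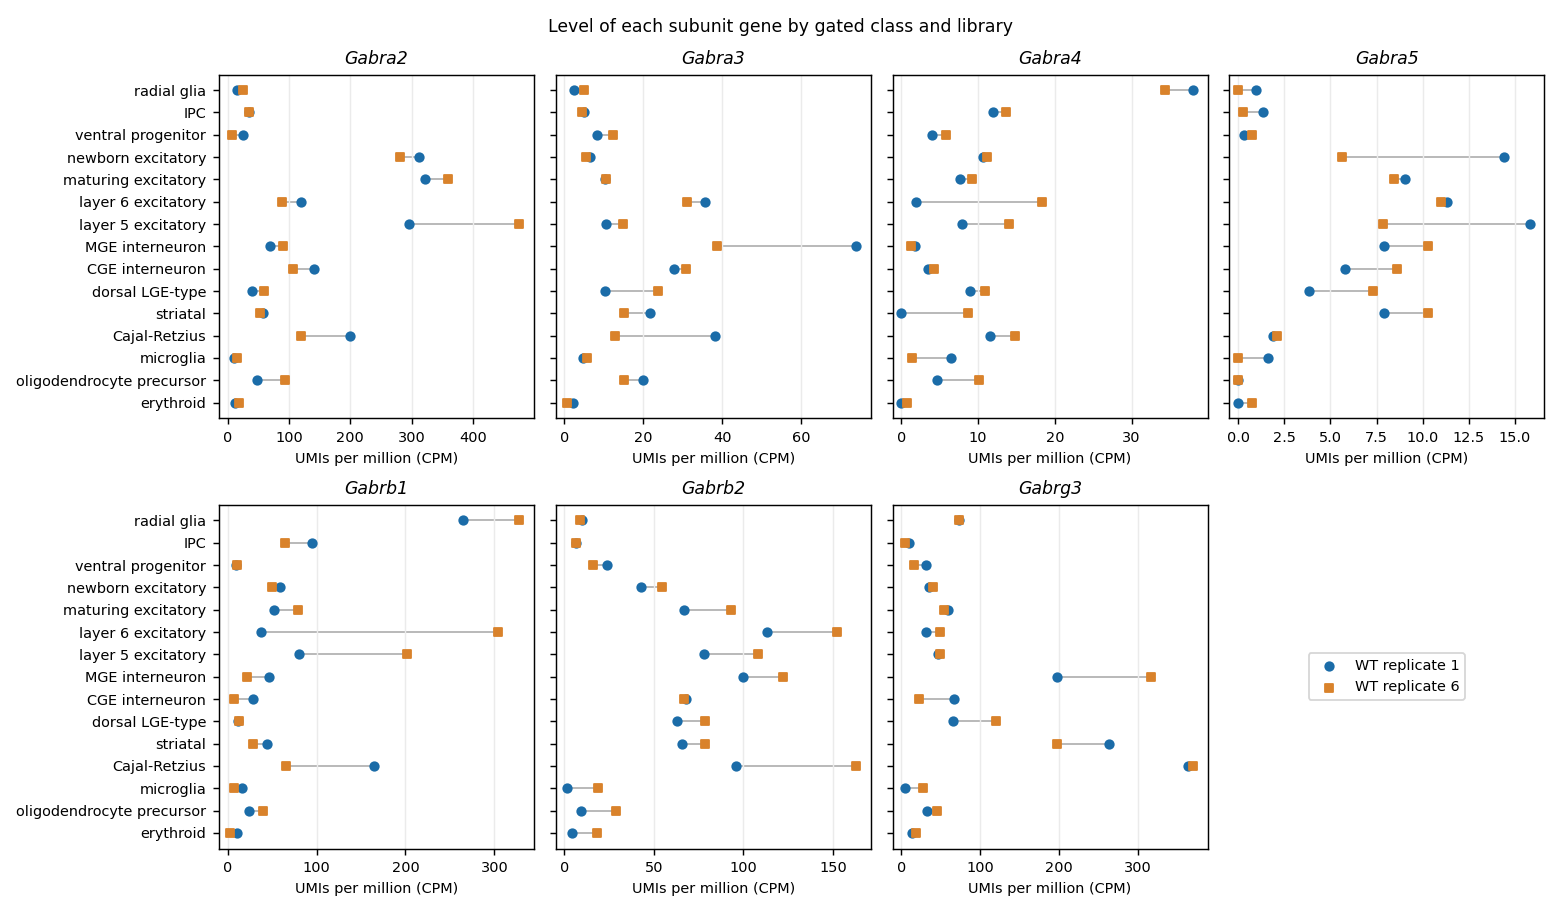
Level of the 7 genes (x axis, CPM, linear, a scale of its own for each gene) in 15 gated classes (y axis), with 1 point for each library and a line joining the 2 libraries of a class. Gabra4 and Gabrb1 have their highest mean in RGCs, Gabra2 in excitatory classes, Gabra3 in MGE interneurons and Gabrg3 in Cajal-Retzius cells, MGE interneurons and striatal neurons.

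Each gene had its own order of classes. Mean levels are given with the SD over the 2 libraries, and neighbouring classes in an order are called overlapping where the ranges of their libraries met. Of the 17 neighbouring pairs in each order, 11 (Gabrg3) to 16 (Gabra5) overlapped, so that only the larger steps in an order exceeded the spread. Erythroid cells, which should lack these genes, are given as a background. Their 5 markers summed to 769000 and 774000 CPM, which leaves other genes a small part of their UMIs. The erythroid values, and the shares of erythroid cells below, may therefore understate the background. Microglia, another such class, had 16.1 and 7.18 CPM of Gabrb1, 4.82 and 27.3 CPM of Gabrg3 and 11.2 and 15.8 CPM of Gabra2.

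Gabra2 was highest in layer 5 excitatory neurons at 386 ± 127 CPM, followed by maturing excitatory neurons at 341 ± 26.4 CPM and newborn excitatory neurons at 297 ± 21.6 CPM. The layer 5 values of 296 and 476 CPM enclosed those of the maturing neurons. Cajal-Retzius cells, the early Reln-producing neurons of the marginal zone, came next at 160 ± 55.7 CPM, below every library of those excitatory classes. Interneurons of the caudal ganglionic eminence (CGE) had 141 and 107 CPM and MGE interneurons 68.6 and 90.1 CPM. RGCs had 15.8 and 25.4 CPM, which overlapped the 12.8 and 18.4 CPM of erythroid cells.

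Gabra3 was highest in MGE interneurons, at 74 and 38.6 CPM. Layer 6 excitatory neurons followed at 35.7 and 31.2 CPM, below both MGE values, and CGE interneurons at 27.8 and 30.9 CPM. Maturing excitatory neurons as a whole had 10.3 and 10.5 CPM. In RGCs the values were 2.47 and 4.89 CPM, against 2.13 and 0.736 CPM in erythroid cells. Microglia had 4.82 and 5.74 CPM, which overlapped the RGC values.

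Gabra4 was highest in RGCs, at 38 and 34.3 CPM, and this class stood apart from every other one. Intermediate progenitor cells (IPCs), the Eomes-expressing offspring of RGCs, had 12 and 13.7 CPM, and newborn excitatory neurons 10.6 and 11.1 CPM. MGE interneurons had 1.82 and 1.29 CPM, from 3 and 2 UMIs. Erythroid cells had 0 and 0.736 CPM.

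Gabra5 was low everywhere. Its highest means, in layer 5 (11.8 ± 5.6 CPM), layer 6 (11.1 ± 0.186 CPM) and newborn excitatory neurons (10 ± 6.21 CPM), overlapped one another. MGE interneurons (9.1 ± 1.71 CPM) and striatal neurons (9.08 ± 1.69 CPM) overlapped layer 5 and newborn neurons, but lay below layer 6, whose 11.3 and 11 CPM came from 6 UMIs in each library. RGCs held 2 and 0 UMIs. Cajal-Retzius cells, at 1.91 and 2.11 CPM, lay below all other neuron classes, but on only 1 UMI in each library, so that their place is uncertain.

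Gabrb1 was highest in RGCs, with 265 and 328 CPM. IPCs had 94.9 and 64.9 CPM, newborn excitatory neurons 58.9 and 49.6 CPM and maturing excitatory neurons 51.7 and 78.7 CPM. MGE interneurons (46.7 and 21.9 CPM) and CGE interneurons (29 and 7.19 CPM) were lower, and erythroid cells had 10.7 and 2.95 CPM. The libraries disagreed in layer 6 neurons, at 37.6 and 304 CPM, and the higher of these lay inside the range of RGCs. The 304 CPM came from 166 UMIs in 22 of 74 cells, 53 of them in a single cell, and without that cell the level was 213 CPM. The 10 RGC markers summed to 368 and 180 CPM in those layer 6 libraries. The cause of the difference in Gabrb1 between the libraries was not tested.

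Gabrb2 was high in several neuron classes. Layer 6 neurons had 113 and 152 CPM, Cajal-Retzius cells 95.7 and 163 CPM and MGE interneurons 100 and 122 CPM, and these ranges overlapped. Maturing excitatory neurons had 66.6 and 93.2 CPM. RGCs (9.86 and 8.81 CPM) and IPCs (6.56 and 6.44 CPM) lay between the erythroid values of 4.27 and 18.4 CPM.

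Gabrg3 was highest in Cajal-Retzius cells, at 364 and 370 CPM, apart from all other gated classes. With clusters in place of gates the mean was 271 CPM there and 288 CPM in MGE interneurons. MGE interneurons (198 and 316 CPM) and striatal neurons (263 and 198 CPM) overlapped each other. RGCs had 72.5 and 72.9 CPM, above the 9.3 and 5.04 CPM of IPCs and the 13.9 and 18.4 CPM of erythroid cells. CGE interneurons had 66.6 and 22.3 CPM, from 115 and 31 UMIs. Cajal-Retzius cells numbered 51 and 46, and with fewer than 50 cells in 1 library they entered no test.

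Cells differ in depth between classes, with medians of 9498 and 8947.5 UMIs in RGCs, 4751 and 4258 in MGE interneurons and 3014 and 3711 in erythroid cells. Shares of cells with a UMI were therefore taken after each cell was thinned to 1500 UMIs. Gabrb1 was then found in 23.6% of RGCs in WT replicate 1 (95% Wilson interval 18.3 to 29.8%) and in 27.7% in WT replicate 6 (22.2 to 34%). In erythroid cells the shares were 0.889% and 0.375%. Unthinned, the RGC shares were 45.2% and 49.1%.

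Gabra2 was found in 27.3% and 30.5% of maturing excitatory neurons, against 2.22% and 1.5% of erythroid cells. Gabrg3 was found in 17.4% and 19.9% of MGE interneurons, in 18.8% and 18.4% of striatal neurons and in 7.69% and 7.73% of RGCs. Its share in CGE interneurons was 4.89% and 1.35%, against 0.889% and 1.5% in erythroid cells. Gabrb2 was found in 11.1% and 11.5% of MGE interneurons and in 0.481% and 0% of RGCs, where 0 of 220 cells allows a share of up to 1.36% when 3 cells are taken as the limit (1.72% by the Wilson interval). Gabra3 reached 9.51% and 5.74% in MGE interneurons. Gabra4 was found in 4.81% and 2.27% of RGCs and in 2.36% and 2.24% of IPCs, and these ranges overlapped. In both libraries it was found in 0% of erythroid cells. There 0 of 225 and 0 of 267 cells allow up to 1.33% and 1.12% by the same limit of 3 cells (1.68% and 1.42% by the Wilson interval). These intervals and limits cover counting error only.

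**Figure D2:**
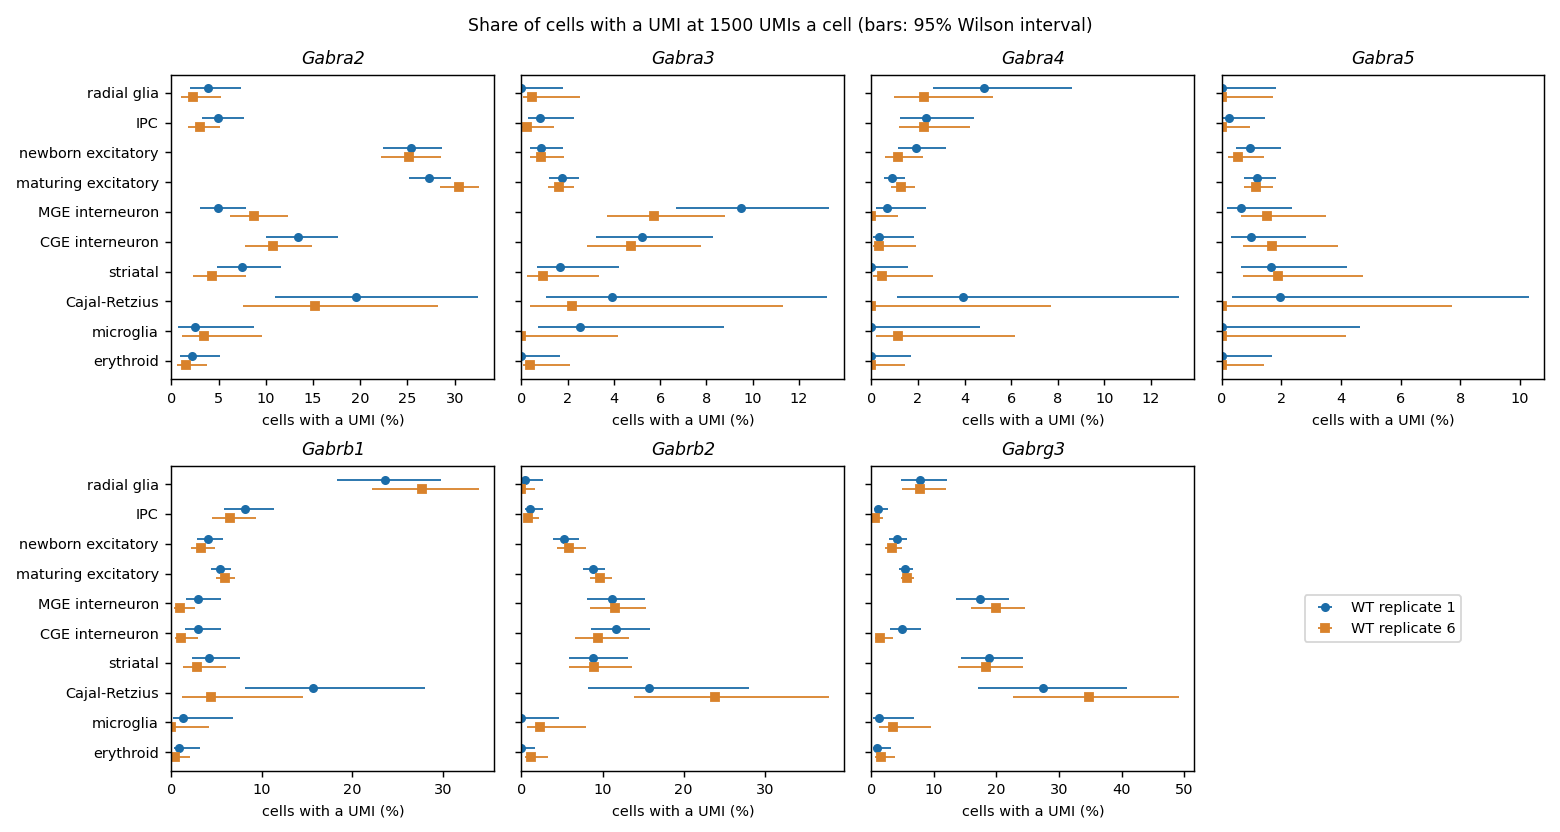
Share of cells with at least 1 UMI of each gene (x axis, %, a scale of its own for each gene) after thinning to 1500 UMIs a cell, in 10 classes (y axis). Points are the libraries and bars the 95% Wilson interval of each share. The Gabrb1 shares in RGCs, 23.6% and 27.7%, lie above the 8.12% and 6.48% of IPCs.

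Members were also counted together in cells thinned to 1500 UMIs. Any of the 7 genes was found in 33.2 ± 0.655% (SD, n = 2 libraries) of RGCs, 42.5 ± 2.54% of maturing excitatory neurons and 38.8 ± 1.09% of MGE interneurons. UMIs of 2 or more members were found in 7.23%, 8.97% and 7.86% of these classes, and in 12.9% of layer 6 neurons, 12% of layer 5 neurons and 22.5% of Cajal-Retzius cells. An alpha member together with a beta member was found in 3.77 ± 1.47% of RGCs, 5.76 ± 0.317% of maturing excitatory neurons and 3.6 ± 0.459% of MGE interneurons. In erythroid cells the share with any member was 3.84 ± 0.399%. These shares count detected molecules, and a cell without a UMI may still express the gene.

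Classes were then compared for their summed counts with edgeR's quasi-likelihood test, with p-values adjusted by Benjamini-Hochberg over all genes tested and called under 0.05. Each class has 2 sums, and nothing in the labels tells whether a library is 1 embryo, so that the p-values measure the spread between these libraries. Log2 differences are given ± SE. The comparisons along the excitatory lineage share classes with one another, and the 3 interneuron comparisons share the MGE sums. Members and lists were chosen with earlier results of these data known, so their counts and medians beside all genes are descriptions only.

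**Figure D3:**
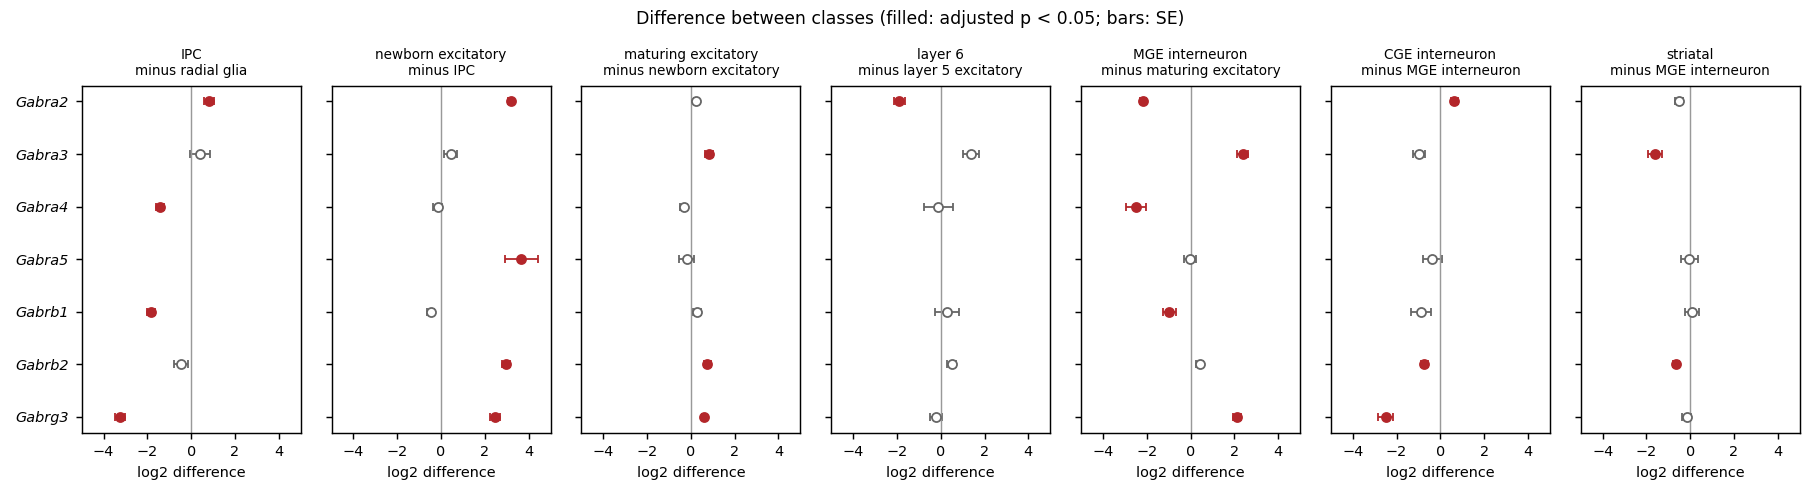
Log2 difference (x axis, bars are SE) of each subunit gene (y axis) in 7 comparisons between classes, 2 libraries a class. Filled points have an adjusted p under 0.05, and genes under the count filter have no point. From RGCs to IPCs 3 genes are called lower and 1 higher, from IPCs to newborn neurons 4 are called higher, and interneurons differ from maturing excitatory neurons in both directions.

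From RGCs to IPCs, the first step of indirect neurogenesis, the beta subunit Gabrb1, the alpha subunit Gabra4 and the gamma subunit Gabrg3 fell, while Gabra2 rose. Of the 6 members that passed the count filter, 4 were called, 3 lower and 1 higher, where 39.3% of all 12157 genes tested were called (21.2% lower and 18.1% higher). The median difference was -0.94 over those members and 0 over all genes. Gabrg3 fell by 3.27 ± 0.23 on the log2 scale (adjusted p = 5.6e-06), Gabrb1 by 1.83 ± 0.18 (adjusted p = 4.4e-05) and Gabra4 by 1.43 ± 0.19 (adjusted p = 3.6e-04). All 3 were lower in both libraries, with no overlap of the classes. Gabra2 rose by 0.81 ± 0.22 (adjusted p = 0.0152), with 15.8 and 25.4 CPM before and 35.3 and 34.4 CPM after. This rise kept its call in 5 of 10 alternatives, over which the adjusted p ran from 2.8e-04 to 0.398. Gabrb2 differed by -0.46 ± 0.31 and Gabra3 by 0.41 ± 0.45, and neither passed. Gabra5 was under the filter, with 2 and 6 UMIs over both libraries.

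From IPCs to newborn excitatory neurons, 4 members rose and none was called lower. All 7 passed the filter, and 45.3% of 13110 genes were called (22.9% higher and 22.4% lower). The median was 2.47 over the members and 0 over all genes. Gabra2 rose from 35.3 and 34.4 CPM to 313 and 282 CPM, a log2 difference of 3.18 ± 0.1 (adjusted p = 2.1e-07). Gabrb2 rose by 2.98 ± 0.19 (adjusted p = 4.7e-06) and Gabrg3 by 2.47 ± 0.22 (adjusted p = 3.3e-05), the latter after its fall at the step before. Gabra5 rose by 3.67 ± 0.75 (adjusted p = 0.00381) from only 6 UMIs in IPCs to 148, a ratio of 12.4 with a 95% counting interval of 5.55 to 34.2. The classes of these 4 genes did not overlap.

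Gabrb1 differed by -0.47 ± 0.17 (adjusted p = 0.0559), and it was called once the library entered as a replicate block (adjusted p = 2.4e-04). When Leiden clusters stood in for the gates, its difference turned to 0.95 (adjusted p = 0.00118), and that of Gabra4 from -0.16 to 0.48 (adjusted p = 0.0492). The direction of these genes at this step therefore depended on how cells were classed. Gabra3 differed by 0.44 ± 0.29 and did not pass.

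From newborn to maturing excitatory neurons, in which no UMI of Neurod1 was found, 3 of 7 members were called, all higher. Of 14335 genes, 8.52% were called, 4.16% higher and 4.36% lower. Of the 1609 and 1923 maturing cells, 1146 and 1350 held a UMI of another newborn marker, so these stages are not cleanly split. Gabra3 rose by 0.82 ± 0.17 (adjusted p = 0.0225), from 6.54 and 5.46 CPM to 10.3 and 10.5 CPM. Gabrb2 rose by 0.75 ± 0.16 (adjusted p = 0.0276) and Gabrg3 by 0.62 ± 0.09 (adjusted p = 0.0059). Gabra3 kept its call in 7 of 10 alternatives, and Gabrb2 and Gabrg3 in 9 each. Gabra2 differed by 0.22 ± 0.08 (adjusted p = 0.157) and was called with the replicate block (adjusted p = 0.00248). The members' median was 0.29, against 0.01 over all genes.

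Inside the maturing gate, cells with none of the newborn markers had more of these 3 genes than cells with at least 1 of them. Gabrb2 was at 107 and 139 CPM without newborn markers and at 50.3 and 72.8 CPM with them, and Gabrg3 at 86.5 and 80.6 CPM against 47.9 and 41.7 CPM. Gabra3 was at 16.8 and 14.8 CPM against 7.64 and 8.62 CPM. Gabra5 showed the same order, with 15.6 and 13.8 CPM against 6.37 and 6.08 CPM. Gabra2 went the other way, with 284 and 316 CPM against 338 and 379 CPM. Gabra4 was at 10.1 and 14.6 CPM without newborn markers and at 6.66 and 6.81 CPM with them, and Gabrb1 at 70.2 and 118 CPM against 44.1 and 61.5 CPM. The ranges of the subsets did not meet in these genes. How many of all genes do the same was not counted, so this is no result about the members. No test was made of the subsets.

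Between the deep layers, Gabra2 was lower in the layer 6 gate (Hs3st4 without Fezf2) than in the layer 5 gate (Fezf2 without Hs3st4). It was at 120 and 88 CPM in layer 6 and at 296 and 476 CPM in layer 5, and fell by 1.89 ± 0.24 on the log2 scale (adjusted p = 2.7e-04). Of the 6 members tested this was the only one called, where 3.42% of 8851 genes were called 2.53% higher and 0.893% lower. The within-library differences were -1.30 and -2.43. Gabra3 had the largest difference the other way, with 35.7 and 31.2 CPM in layer 6 and 10.5 and 14.9 CPM in layer 5, at 1.38 ± 0.37 (adjusted p = 0.0571). Gabrb2 differed by 0.5 ± 0.21 (adjusted p = 0.259).

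For Gabrb1 the libraries pointed in opposite directions, with -1.08 in WT replicate 1 and 0.59 in WT replicate 6. These layer gates held 61 and 74 cells for layer 6 and 104 and 105 for layer 5. Without the filter on low counts edgeR called 0 of 17980 genes, with 1596 at an unadjusted p under 0.05, and Gabra2 then had an adjusted p of 0.23. DESeq2 called 1 member, Gabra2, with an adjusted p of 1.9e-06, where it called 1.41% of all genes.

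MGE interneurons come from the eminence that gives rise to somatostatin and parvalbumin interneurons. They had more Gabra3 and Gabrg3 and less Gabra2, Gabra4 and Gabrb1 than maturing excitatory neurons. Of the 7 members, 5 were called, where 30.9% of 14127 genes were called (14.8% higher and 16.1% lower). Gabra3 was higher by 2.38 ± 0.25 (adjusted p = 1.5e-04) and Gabrg3 by 2.12 ± 0.19 (adjusted p = 4.7e-05). Gabra2 was lower, at -2.16 ± 0.13 (adjusted p = 4.0e-06), with 68.6 and 90.1 CPM against 322 and 359 CPM. Gabra4 was lower at -2.48 ± 0.45 (adjusted p = 0.00347), on 5 UMIs in the interneurons, for which the counting interval of the ratio of 5.42 runs from 2.29 to 16.8.

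Gabrb1 was lower at -0.97 ± 0.31 (adjusted p = 0.0415), but its within-library differences were -0.14 and -1.84. It kept its call in 6 of 10 alternatives, and with clusters in place of gates it stood at 0.13 (adjusted p = 0.736). Gabrb2 differed by 0.41 ± 0.17 (adjusted p = 0.0944), and the replicate block gave an adjusted p of 0.00183. Gabra5 differed by -0.01 ± 0.27. The members' median of -0.01 was close to the -0.02 of all genes, with members on both sides.

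Among MGE interneurons, cells with a UMI of Sst (77 and 62 cells) had 110 and 51.9 CPM of Gabra3, and those without (228 and 269 cells) 59.1 and 34.8 CPM, so the subsets overlapped. Gabrg3 also overlapped, at 162 and 260 CPM with Sst and 213 and 332 CPM without. Gabra2 was at 83.2 and 138 CPM with Sst, above the 62.6 and 76.3 CPM without. No test was made of these subsets.

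Cells of the CGE gate, named for the source of Htr3a interneurons, had less Gabrg3 and Gabrb2 and more Gabra2 than MGE interneurons. This gate set no limit on markers of the dorsal lateral ganglionic eminence (LGE). Of these, Meis2, Pbx3 and Tshz1 were at 2320, 1810 and 196 CPM in it, against 311, 169 and 65.3 CPM in MGE interneurons. In the dorsal LGE-type gate they were at 5470, 3940 and 752 CPM. The CGE marker Prox1 went the other way, at 201 CPM against 3.64 CPM there. The share of dorsal LGE-type cells in the CGE gate was not tested. Of 6 members tested, 3 were called, where 7.86% of 10664 genes were called (3.77% higher and 4.09% lower). Gabrg3 was lower at -2.5 ± 0.34 (adjusted p = 5.5e-04), with 66.6 and 22.3 CPM against 198 and 316 CPM. Its within-library differences were -1.57 and -3.80. Gabrb2 was lower at -0.73 ± 0.14 (adjusted p = 0.00697), and Gabra2 higher at 0.64 ± 0.18 (adjusted p = 0.0494).

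These smaller differences were less stable. Gabrb2 kept its call in 5 of 10 alternatives, its difference being -0.14 with stricter gates and 0.00 with clusters. Gabra2 kept its call in 4 of 10. Gabra3 differed by -0.97 ± 0.28 (adjusted p = 0.0662) and Gabrb1 by -0.88 ± 0.47 (adjusted p = 0.384). With the replicate block both were called, at adjusted p of 0.00262 and 0.0124. This brought the members called to 5 of 6, where 11.9% of all genes were called. Gabra5 differed by -0.37 ± 0.42, and Gabra4 was under the filter with 12 and 5 UMIs.

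Striatal neurons, GABAergic projection neurons of the basal ganglia, had less Gabra3 and Gabrb2 than MGE interneurons. These 2 of 6 members tested were called, both lower, where 16.2% of 10604 genes were called 7.56% higher and 8.66% lower. Gabra3 was at 21.8 and 15 CPM against 74 and 38.6 CPM, a difference of -1.61 ± 0.33 (adjusted p = 0.00509). Gabrb2 was at 65.5 and 78.3 CPM against 100 and 122 CPM, a difference of -0.65 ± 0.15 (adjusted p = 0.0114), and kept its call in 7 of 10 alternatives. Gabra2 differed by -0.52 ± 0.17 (adjusted p = 0.057) and was called with the replicate block (adjusted p = 0.0149). Gabrg3 differed by -0.17 ± 0.2 (adjusted p = 0.65), with the libraries at 0.41 and -0.67.

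Within the striatal gate Gabrg3 and Gabrb2 differed between subsets that this comparison joins. Cells with Drd2, Six3 or Adora2a and no Isl1, markers of the indirect pathway, had 398 and 284 CPM of Gabrg3. Cells with Isl1 and none of those markers, the direct pathway pattern, had 100 and 116 CPM. Gabrb2 was reversed, with 40.3 and 52.5 CPM in the former and 89.3 and 112 CPM in the latter. The subsets held 103 and 93 cells and 83 and 92 cells. They did not overlap in either gene, overlapped in every other member, and were not tested. Drd2, Isl1 and the other genes named chose the subsets.

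RGCs too were mixed. Gabrb1 was at 491 and 481 CPM in RGCs without a UMI of a cycling marker (67 and 71 cells) and at 152 and 217 CPM in those with 2 or more of the 6 (108 and 118 cells). Gabra4 did not follow, with 49.7 and 22.8 CPM against 37.9 and 40.8 CPM, and Gabrg3 was at 59.3 and 58.7 CPM against 66.6 and 77.3 CPM. In IPCs Gabra2 was at 50.9 and 42.6 CPM without cycling markers and at 8.27 and 10.6 CPM with them, while Gabra4 was higher in the cycling cells, at 26.7 and 18 CPM against 5.89 and 10.6 CPM. Depth per cell differs with the cycle and was not thinned in these values.

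**Figure D4:**
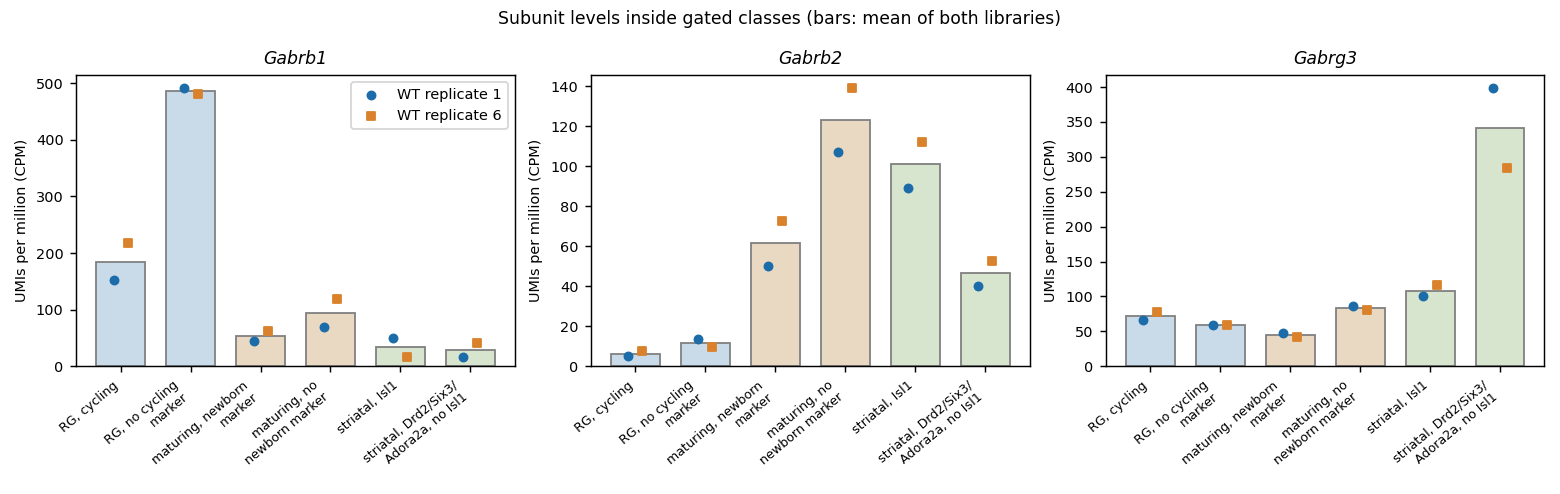
Level (y axis, CPM, from 0) of Gabrb1, Gabrb2 and Gabrg3 in subsets of 3 gated classes (x axis): RGCs by cycling markers, maturing excitatory neurons by newborn markers and striatal neurons by pathway markers. Bars are the mean of 2 libraries and points the libraries. Gabrb1 is at 491 and 481 CPM in RGCs without cycling markers, and Gabrb2 and Gabrg3 order the striatal subsets in opposite ways.

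Over the 16 classes that share no cells, Gabra4 and Gabrb1 had the highest correlation of the 21 pairs of members, the head-to-head genes whose start windows are shown above, but which pair came first depended on the scale. Pearson's r of their log2(mean CPM + 10) was 0.858, and 0.737 over 15 classes without RGCs. Gabrb2 and Gabrg3 followed at 0.837, or 0.905 without RGCs, which is then the highest of the pairs. With a pseudocount of 1 in place of 10, Gabra4 and Gabrb1 had 0.78 and Gabrb2 and Gabrg3 had 0.83. The other neighbours, Gabra5 and Gabrg3 on chromosome 7, had 0.55, or 0.594 without RGCs. On chromosome 5, Gabra2 had 0.19 with Gabra4 and 0.362 with Gabrb1, and without RGCs 0.533 and 0.699. These are descriptions over classes from the same libraries, which share depth and ambient RNA.

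**Figure D5:**
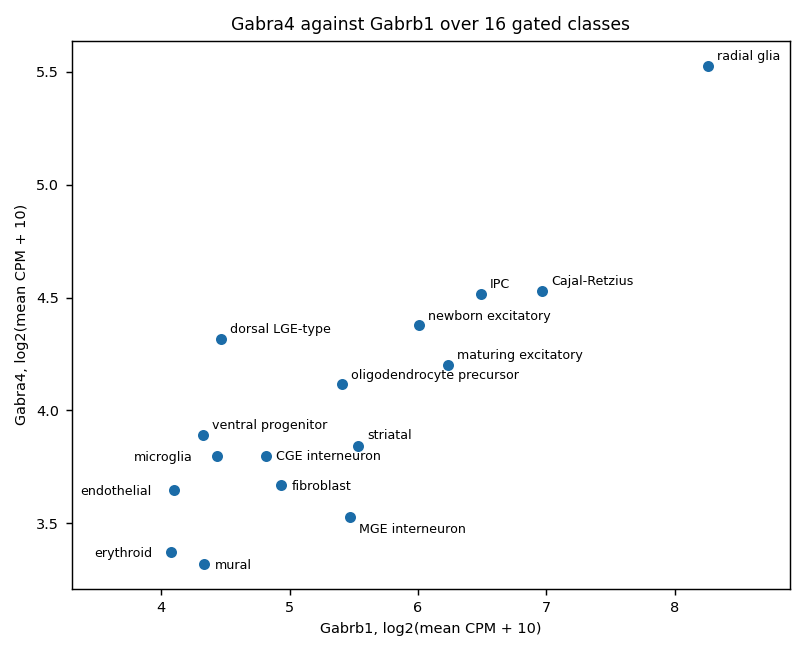
Mean level of Gabra4 (y axis) against Gabrb1 (x axis), both as log2(CPM + 10), with 1 point for each of the 16 gated classes that share no cells. RGCs are highest in both genes and the r of 0.858 falls to 0.737 without them.

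Among 7572 genes with at least 50 CPM in 1 class, the pattern over classes most like Gabrb2 was that of Ina, a neurofilament gene, at r of 0.973, followed by Cacna1b (0.971) and Snhg14 (0.965). Gabra2 was nearest to Cnr1, the cannabinoid receptor, at 0.947, then Khdrbs2 (0.945) and Serp2 (0.942). Gabra3 was nearest to Gria4, a glutamate receptor subunit, at 0.958, then Dlgap2 (0.93) and Dpp6 (0.925). Gabrg3 was nearest to Gnaz at 0.937, then Cntnap2 (0.923) and Kctd8 (0.909). Gabra5 was nearest to Glra2, a glycine receptor subunit, at 0.923, then Dpf1 (0.892) and Scn1a (0.891). Gabra4 was nearest to Plekha6 at 0.869, then Scrn1 and Pde1b (0.867 each). Gabrb1 was nearest to Nrg1 at 0.848, then Morn2 (0.841) and Cdh4 (0.839). With a pseudocount of 1, 14 of these 21 genes stayed among the nearest 3. Gabra4 itself is under 50 CPM in every class and was not among the genes compared.

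Of the other subunit genes, Gabrg1, a gamma subunit, fell from 7.61 CPM in RGCs to 0.967 CPM in IPCs (-2.86 ± 0.5, adjusted p = 0.00167), the step at which Gabrg3 fell. It was higher in MGE interneurons than in maturing excitatory neurons, at 10.3 against 1.4 CPM (2.79 ± 0.43, adjusted p = 0.00139).

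Of 18 genes for proteins that anchor, traffic or assemble the receptor, 5 of 16 tested were higher and 0 lower in IPCs than in RGCs, where 39.3% of all genes were called (18.1% higher and 21.2% lower), led by the motor gene Kif5a (1.8 ± 0.24, adjusted p = 3.4e-04) and the adaptor gene Trak2 (1.13 ± 0.19, adjusted p = 0.00127). From IPCs to newborn neurons 9 of 18 rose and 1 fell, against 22.9% of all genes called higher and 22.4% lower, with Shisa7, a receptor auxiliary subunit, at 2.92 ± 0.22 (adjusted p = 1.3e-05), Iqsec3, which binds gephyrin, at 2.03 ± 0.28 (adjusted p = 4.1e-04) and Hap1 falling, at -1.57 ± 0.26 (adjusted p = 0.00123). From newborn to maturing neurons edgeR and DESeq2 each called 0 of the 18, where they called 8.52% and 6.35% of all genes. Of the 18, 3 and 0 had an unadjusted p under 0.05. MGE interneurons had 7 higher and 3 lower than maturing neurons, against 14.8% of all genes called higher and 16.1% lower, led by Hap1 (2.57 ± 0.38, adjusted p = 0.00114) and the dystrophin gene Dmd (1.55 ± 0.12, adjusted p = 1.7e-05), with Trak1 the lowest (-0.89 ± 0.1, adjusted p = 2.2e-04).

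Dmd and Iqsec3 were the 2 of 18 that were lower in CGE than in MGE interneurons, and 4 of 18 were lower in striatal neurons, led by Dmd at -2.63 ± 0.15 (adjusted p = 2.1e-07). Over all genes 7.86% were called in the former comparison (4.09% lower) and 16.2% in the latter (8.66% lower). Between the layers edgeR and DESeq2 each called 0 of 17, where they called 3.42% and 1.41% of all genes. Of the 17, 2 and 0 had an unadjusted p under 0.05. The median of this list stayed between -0.2 and 0.31 in every comparison.

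The last list holds 10 genes for making, moving and sensing GABA and for chloride transport, of which Gad1, Gad2 and Slc32a1 also served in the gates and support nothing here. Of the rest, 0 of 5 tested rose and 3 fell from RGCs to IPCs, where 18.1% of all genes were called higher and 21.2% lower, the largest being the GABA transporter gene Slc6a11, from 83 to 7.99 CPM (-3.31 ± 0.26, adjusted p = 1.3e-05), and the chloride importer gene Slc12a2 (-0.95 ± 0.2, adjusted p = 0.00476). Slc6a11 thus fell at the step at which Gabrb1, Gabra4 and Gabrg3 fell. From IPCs to newborn neurons the GABA-B receptor genes Gabbr2 (3.66 ± 0.23, adjusted p = 3.9e-06) and Gabbr1 (0.61 ± 0.11, adjusted p = 0.00236) rose, and the GABA transaminase gene Abat fell (-1.73 ± 0.26, adjusted p = 6.6e-04). Abat was the only one called from newborn to maturing neurons (-1.31 ± 0.19, adjusted p = 0.00537), where 8.52% of all genes were called.

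MGE interneurons had more Abat (3.76 ± 0.18, adjusted p = 1.1e-06) and more of the chloride exporter gene Slc12a5 (2.7 ± 0.26, adjusted p = 8.5e-05) than maturing neurons, and less Slc6a11 (-1.33 ± 0.36, adjusted p = 0.0231) and Gabbr2 (-0.73 ± 0.12, adjusted p = 0.00191). CGE interneurons had more Abat than MGE interneurons (0.74 ± 0.15, adjusted p = 0.00871), and striatal neurons more Slc12a2 (0.94 ± 0.23, adjusted p = 0.0145).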

How the data were processed

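Libraries were prepared per the labels with 10x Genomics single-cell 3' chemistry, version 3.1. Each deposited file gives unnormalised UMI counts, a cell and a gene at a time, which the authors made with Cell Ranger 7.0.0 on build mm10, per the submitters' processing notes. Total counts per library were 74930397 and 68964234. The lists and members were chosen with earlier results of these data known, and the gate thresholds after the markers' levels had been seen. Kept were cells that had from 1500 to 60000 UMIs, of which less than 10% mitochondrial.

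Gates asked for a number of detected markers: RGCs at least 5 of 10 with Pax6 or Emx2 and no Eomes; IPCs Eomes and at least 3 of 8; excitatory neurons at least 4 of 8 and at most 1 GABAergic marker, newborn with Neurod1 and maturing without; layer 5 with Fezf2 and at least 3 of 5 markers and layer 6 with Hs3st4 and at least 2 of 4, inside the maturing gate. GABAergic cells had at least 3 of 9 markers, MGE interneurons Lhx6 and at least 3 of 7, CGE interneurons Adarb2, at least 2 of 5 and no Lhx6, and striatal neurons at least 3 of 12. Cells that passed more than 1 gate, 152 and 143, were left out. Doublets were scored against simulated doublets and stayed in, and leaving them out was an alternative.

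Counts were summed per library and class, at least 50 cells a library, and tested with edgeR 4.0.16 (TMM, filterByExpr, glmQLFit and glmQLFTest, two-sided, only the compared classes in a fit, Benjamini-Hochberg adjustment). SE is the absolute log2 difference over the square root of F. The test was also run on simulated counts, whose outcome is not given here. They had a common dispersion and no pairing of libraries, so they cannot show how the test does on these paired sums. Alternatives were library size in place of TMM, DESeq2 1.42.0, no count filter, 3000 to 30000 UMIs with under 5% mitochondrial UMIs, Leiden clusters at resolution 1.5, stricter gates, thinning, all classes in 1 fit, each library alone, and the library as a replicate block. The pairing comes from the design, since both sums of a comparison are from the same library, and deviations of same-library sums correlated with r of 0.182 to 0.374 across genes. Between the libraries the chi-square per degree of freedom was 26.9 over 26962 genes. Named genes were all members, and of each further list the 2 largest rises and 2 largest falls among called genes; Abat and Slc12a5 in MGE interneurons were added after their values were seen, and some listed genes are not reported here. Coordinates and windows are from RefSeq, GRCm38.p6, in which all 7 members matched.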

Additional observations from a re-analysis of the deposited data

How the results depend on the processing

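Of 22 calls of a member, 13 were kept under every alternative with a test. The number of members called changed by over 1.5 times as follows. The share of all genes called in the same run stands in brackets. With thinned cells the number fell from 4 to 2 in IPCs against RGCs (25%) and from 3 to 1 in CGE against MGE interneurons (7.74%). In striatal neurons it fell from 2 to 1 (14.3%). DESeq2 left 1 in CGE interneurons (4.46%) and 1 in striatal neurons (8.17%). The single fit of all classes left 1 in maturing against newborn neurons (4.3%), 1 in CGE interneurons (4.95%) and 1 in striatal neurons (10.2%). With no filter it was 5 in maturing neurons (8.94%), 5 in CGE interneurons (5.68%) and 0 between the layers (0%). With clusters it was 7 in newborn neurons (42.8%), 5 in maturing neurons (22%) and 6 in striatal neurons (19.2%). The replicate block gave 5 in CGE interneurons (11.9%), and beyond the 6 calls it added, each printed beside its result, it changed no other call of a member. The cause was not tested.

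Members turned in direction in these cases. With clusters, newborn minus IPC became 0.48 for Gabra4 and 0.95 for Gabrb1, and Gabrb1 became -0.62 in maturing minus newborn, 0.13 in MGE minus maturing and -1.59 in striatal minus MGE. Gabra5 in maturing minus newborn became 0.06 with the stricter cell filter, 0.13 with stricter gates and 0.2 with thinned cells. In MGE minus maturing it became 0.06 with library size, 0.01 with DESeq2 and without doublets, 0.2 with the stricter cell filter, 0.44 with clusters and 0.32 with stricter gates, and in striatal minus MGE 0.23 with stricter gates. Gabrb1 in striatal minus MGE became -0.21 with the stricter cell filter and with stricter gates and -0.04 without doublets, and Gabrg3 in layer 6 minus layer 5 became 0.08 with stricter gates. Each turned value is followed by the value from the other library. Without WT replicate 1 the turned values were -0.12 against 0.95 for Gabra3 (IPC minus RGC), 0.59 against -0.67 (maturing minus newborn) and 0.29 against -0.19 (MGE minus maturing) for Gabra5, and 0.38 against -1.78 for Gabra4 and 0.02 against -0.53 for Gabrg3 between the layers. Without WT replicate 6 they were -0.19 against 0.67 (maturing minus newborn), -1.08 against 0.59 (layers) and -0.08 against 0.37 (striatal minus MGE) for Gabrb1 and 0.41 against -0.67 for Gabrg3 (striatal minus MGE). The cause was not tested in any of them. Leaving out a library leaves 1 sum a class, so these values have no test. The highest class of a member stayed the same in 31 of 35 pairs of gene and alternative. It moved with clusters for Gabra2 (layer 5 to newborn neurons) and Gabrg3 (Cajal-Retzius cells to MGE interneurons), with thinned cells for Gabra5 (layer 5 to layer 6) and with the stricter cell filter for Gabrb2 (layer 6 to Cajal-Retzius cells). Without the cell with most UMIs of a gene, chosen as an alternative after seeing the data, the RGC mean of Gabrb1 was 280 CPM. Depth limited Gabra4 and Gabra5 most: with thinned cells each could be tested in 2 comparisons, against 5.

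The count over all genes moved by over 1.5 times as follows. For IPCs against RGCs it was 4772, with DESeq2 2822 and thinned 1872, and for newborn neurons 5936, thinned 2481. For maturing neurons it was 1222, against 2103 with no filter, 3404 with clusters, 1861 with stricter gates, 554 thinned, 2706 with the replicate block and 616 in the single fit. Between the layers it was 303, against 125 with DESeq2, 154 with the stricter cell filter, 191 with clusters, 127 with stricter gates, 114 thinned and 0 with no filter. For MGE interneurons it was 4366, with DESeq2 2897 and thinned 2202, for CGE interneurons 838, with DESeq2 476, thinned 542 and the replicate block 1270, and for striatal neurons 1720, with DESeq2 866 and thinned 946.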

Other observations

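Oligodendrocyte precursors had 47.7 and 94.1 CPM of Gabra2, 24.6 and 40.3 CPM of Gabrb1, and 32.3 and 45.4 CPM of Gabrg3. Single cells weighed heavily there, since 1 of the cells gave 27 of 56 Gabra2 UMIs in WT replicate 6. Without doublet-scored cells the means fell from 70.9 to 17.6 CPM for Gabra2, from 32.5 to 15.2 CPM for Gabrb1 and from 38.9 to 11.8 CPM for Gabrg3. The 8 excitatory markers summed to 596 and 797 CPM in this class, and their part in these levels was not tested. Gabrg1, a gamma subunit outside the 7 and chosen after its values were seen, was at 36.9 and 43.7 CPM in these cells, above every other of the 18 classes. Cells that passed no gate had 136 and 163 CPM of Gabra2, 83.4 and 89.7 CPM of Gabrb1 and 97.6 and 90.9 CPM of Gabrg3.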
